A study of Homo sapiens with 2 samples.

Results

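MCF10A, an immortalised and non-tumorigenic human breast epithelial line that needs EGF to proliferate, was compared here after 20 h and after 15 h of EGF alone. The cells were chosen by joining each cell barcode to its sample tag and each tag to the condition name in the deposited annotation, and cells named 20 h or 15 h without an inhibitor were kept. This gave 1223 of 4837 cells. At 15 h there were 488 cells in library 1 and 64 in library 2, and at 20 h there were 438 and 233. Each of the 2 biological replicates was tagged by condition, pooled and sequenced as 1 library, so each time has n = 2 sums of UMI counts (counts of distinct transcript molecules). The other 6 conditions, unstimulated cells (0 h), EGF alone for 30 h, and a MEK or a PI3K inhibitor added at 15 h and read at 20 h or 30 h, entered the fit to share its estimate of spread. All groups carry the genotype of this 1 line, cells of all groups were tagged and fixed in methanol, and no EGF dose is stated by the labels. The comparison covers the hours after the 15 h point at which the study added its inhibitors.

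Growth factor signalling through ERK and PI3K raises D-type cyclins, whose kinases phosphorylate the retinoblastoma protein RB and release E2F transcription factors. E2F then drives cyclin E, the MCM helicase, and the enzymes that make deoxynucleotides and copy DNA, and entry into S phase follows. Genes for mitosis are switched on later, largely through the MuvB complex with B-MYB and FOXM1 at CHR elements, and most histone genes are expressed while DNA is copied.

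E2F proteins bind DNA at sites of the type TTTCGCGC, TTTGGCGC, TTTCCCGC or TTTGCCGC, read on either strand. Of the 37 genes for origin licensing, the replication fork and nucleotide synthesis that were called higher at 20 h, 29 matched the RefSeq promoter table (GRCh38.p14, 250 bases before to 50 after the start), 15 held such a site in those 300 bases and 10 in the 250 bases before the start. The 5 with the smallest p among the latter are printed 5' to 3' on the gene's strand, with the sites in capitals, as examples of the element in called replication genes, most of which held none in those 250 bases.
TYMS promoter, chr18:657503-657652, plus strand: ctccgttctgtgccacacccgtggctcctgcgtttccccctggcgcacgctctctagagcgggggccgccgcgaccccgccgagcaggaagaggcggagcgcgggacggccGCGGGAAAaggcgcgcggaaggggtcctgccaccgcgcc
PCNA promoter, chr20:5126623-5126772, minus strand: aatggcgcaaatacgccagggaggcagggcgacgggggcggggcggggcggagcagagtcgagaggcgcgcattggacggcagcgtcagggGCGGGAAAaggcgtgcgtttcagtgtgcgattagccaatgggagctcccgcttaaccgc
MCM7 promoter, chr7:100101398-100101647, minus strand: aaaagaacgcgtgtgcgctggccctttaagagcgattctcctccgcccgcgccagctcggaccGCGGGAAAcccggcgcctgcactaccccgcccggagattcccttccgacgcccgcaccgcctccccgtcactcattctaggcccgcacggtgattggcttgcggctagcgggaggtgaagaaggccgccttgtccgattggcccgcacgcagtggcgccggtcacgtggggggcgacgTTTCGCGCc
DUT promoter, chr15:48332047-48332196, plus strand: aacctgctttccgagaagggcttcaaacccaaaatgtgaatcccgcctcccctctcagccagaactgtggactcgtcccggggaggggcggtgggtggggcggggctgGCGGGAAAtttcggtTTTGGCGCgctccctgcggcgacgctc
MCM3 promoter, chr6:52284743-52284992, minus strand: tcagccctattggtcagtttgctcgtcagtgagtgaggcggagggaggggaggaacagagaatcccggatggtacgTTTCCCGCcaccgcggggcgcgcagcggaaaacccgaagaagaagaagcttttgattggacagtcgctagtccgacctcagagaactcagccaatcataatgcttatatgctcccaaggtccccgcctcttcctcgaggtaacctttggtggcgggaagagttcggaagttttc
The sites nearest the start lay 9 bases before it in MCM7, 27 in DUT, 39 in TYMS, 59 in PCNA and 174 in MCM3, and MCM7 and DUT held 2 each. TYMS makes thymidylate, DUT removes dUTP, PCNA is the sliding clamp of DNA polymerases, and MCM3 and MCM7 are subunits of the replicative helicase. On the log2 scale TYMS rose by 1.64, MCM7 by 0.89, PCNA by 0.86, DUT by 0.71 and MCM3 by 0.70 from 15 h to 20 h.

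The sums at 15 h held 6112922 UMIs in library 1 and 635365 in library 2, and those at 20 h 6186798 and 2757477. The median cell had 12160 and 8400 UMIs at 15 h and 14270 and 11510 at 20 h, so cells at 20 h were deeper in both libraries. Mitochondrial-encoded transcripts took 5.16% and 6.15% of UMIs in the median cell at 15 h and 5.09% and 5.41% at 20 h. The libraries shared 0 barcodes. The basal keratin KRT5 was abundant at both times, at 2498 and 3131 CPM (UMIs of a gene scaled by the sum's total and by TMM) at 15 h and 2671 and 3105 at 20 h. EGFR was at 133 and 152, then 127 and 152. Of 10 tested markers of the line, 6 reached 20 CPM (before TMM) in both sums of either time. The basal markers TP63 and CDH3 and the epithelial markers CDH1 and EPCAM did not. CDKN2A and CDKN2B, which this line lacks, were not in both tables, and EPCAM was between 2.21 and 11.2 CPM. Of 25 markers of blood, endothelial, stromal and other cells 11 were in both tables, 4 passed the count filter and 0 were called by edgeR or DESeq2, with 0 at an unadjusted p under 0.05. Their summed level was 50.7 and 35.5 CPM at 15 h and 45.1 and 31.6 at 20 h, mostly CD14 and DCN, and PTPRC was not in both tables.

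Of 11147 genes tested, 568 (5.1%) were called at an adjusted p under 0.05 (edgeR quasi-likelihood F test, library as a block), 383 (3.44%) higher and 185 (1.66%) lower at 20 h. These shares of 3.44% and 1.66% are the background for the list counts below. The median log2 difference over all genes was -0.002. The genes higher at 20 h rose by a median of 0.96 on the log2 scale in library 1 and 0.76 in library 2, and those lower differed by -0.62 and -0.67. All but 8 of the called genes had the same sign in both libraries (560 of 568), and for 511 the sums of the 2 times did not overlap. Over all genes tested, both 20 h sums lay above both 15 h sums in 19.8% and below them in 16.4%. The calls were made on these same sums, so neither count is independent of them. Scaled by library totals alone, 645 were called, 511 higher and 134 lower. Without the library as a block the count was 88, and without the 15 h sum of library 1, which leaves the 64 cells of library 2 as the only ones at that time, it was 105, of which 90 were among the 568. Without the 20 h sum of library 1 it was 280. In bulk sums like these, more cells that transcribe a gene and more RNA per cell cannot be told apart.

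The 12 largest rises were NDC80, DIAPH3, MKI67, BIRC5, RRM2, NUF2, SHCBP1, TOP2A, KRT15, ANLN, FBXO5 and CENPA, and all but KRT15, a basal keratin, are known from DNA replication, mitosis or cell division. The 12 largest falls were SPRR2D, SERPINB2, MYL9, SLC7A11, KCNG1, ASNS, CRYBG2, VEGFA, AARS, TAGLN, PCK2 and LINC01133, among them genes of keratinocyte stress, amino acid supply and the actin cytoskeleton. Of 101 genes named here and called, 19 were called under every one of the 13 alternatives that tested them, 12 higher and 7 lower. They include NDC80, RRM2, TYMS, RRM1, CLSPN, MKI67, HMGB2, ATAD2, EZH2, DIAPH3, ASNS, PSAT1, PHGDH, GARS, SARS, TAGLN and LINC01133.

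**Figure D1:**
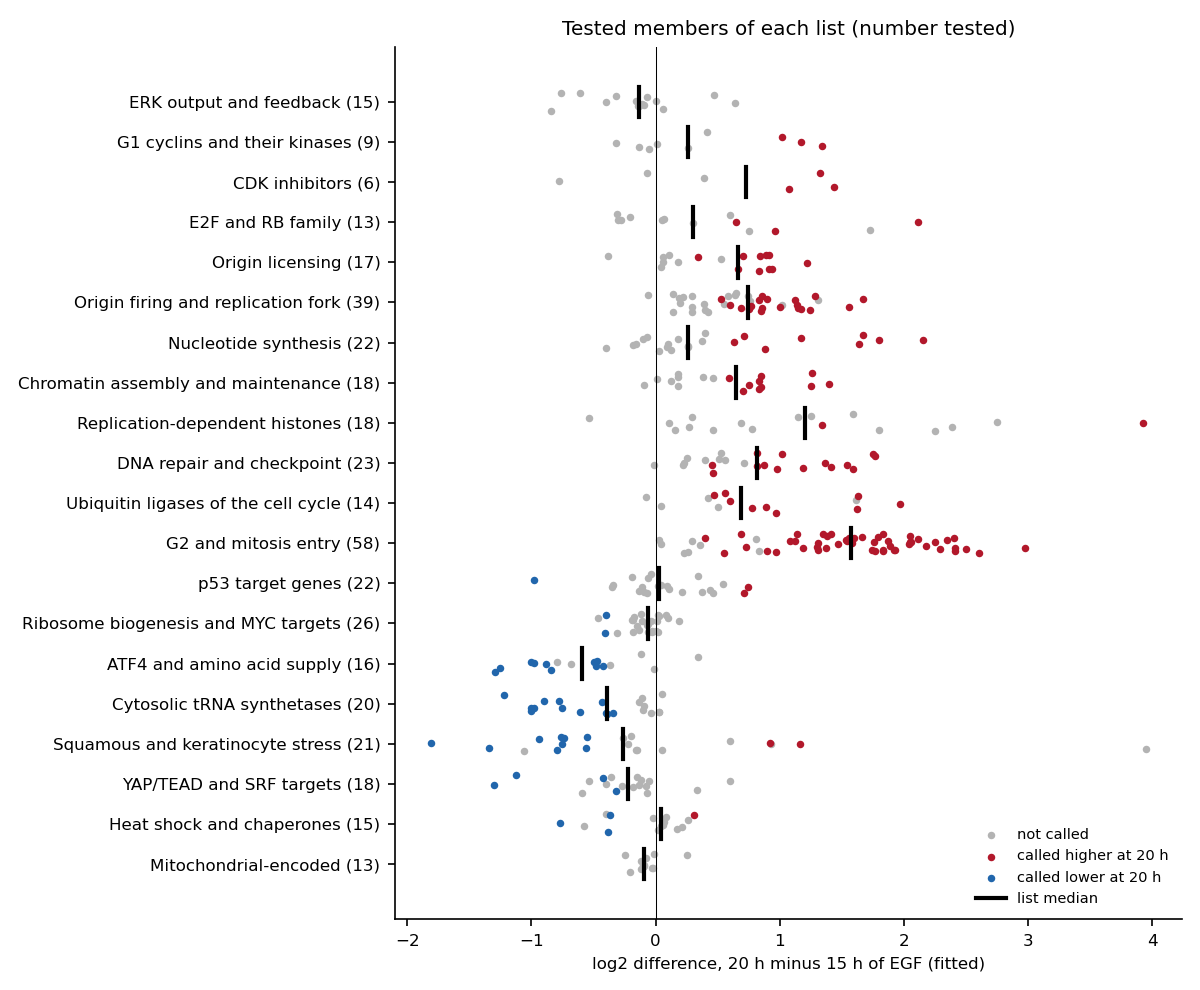
Each point is a tested gene of a list, placed by its fitted log2 difference at 20 h minus 15 h of EGF; red and blue points passed adjusted p under 0.05, grey points did not, and the black bar is the list's median. HIST1H2BH, at 0 in both 15 h sums, is not drawn. Lists of DNA replication and mitosis lie to the right of 0 and those of ATF4 and cytosolic tRNA synthetases to the left.

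The list of ERK output and its feedback (phosphatases, Sprouty proteins and ETS factors) had 15 genes. Of these, 0 were called in the main edgeR fit or by DESeq2, and 3 had an unadjusted p under 0.05. Their median log2 difference was -0.13, with 11 fitted values below 0 and 4 above. Other edgeR settings called some of them lower and 0 higher. These were 2 with the 4 sums alone and 2 with only cells of at least 6500 UMIs. At a minimum of 20 CPM, 1 of the 6 genes tested was called lower. DUSP6, the phosphatase of ERK, was at 21.9 and 12.8 CPM at 15 h and 22.6 and 18.5 at 20 h. Among 18 immediate early and AP-1 genes only MYC was called, from 237 and 247 CPM to 187 and 184 (log2 -0.40 ± 0.12 SE, adjusted p = 0.029). That call was absent without the block (adjusted p = 0.75) and with DESeq2 (0.28). It was also absent without the 15 h sum of library 1 (log2 -0.24) and without the 20 h sum of library 2 (-0.26). With the 4 sums alone edgeR called 3 genes of this list lower. Of 10 EGFR ligands and ERBB receptors only EPGN, the ligand epigen, was called in the main fit. It went from 103 and 115 CPM to 57.5 and 75.1 (log2 -0.74, adjusted p = 3e-05). That call was lost without the 15 h sum of library 1 (log2 -0.73). Without the low-count filter, or with the 4 sums alone, 1 gene of this list was called higher. EGFR itself did not pass the test (log2 -0.03, adjusted p = 0.94).

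Cyclin E and its kinase rose while D-type cyclins gave no call in the main edgeR fit. CCNE2 was at 11.7 and 21.3 CPM at 15 h and at 30.2 and 42.8 at 20 h (log2 1.34 ± 0.23 SE, adjusted p = 2.9e-05). CCNE1 went from 12.2 and 17.0 CPM to 26.3 and 28.4 (log2 1.02), and CDK2, the kinase that cyclin E activates, from 4.41 and 4.26 to 8.99 and 14.1 (log2 1.17). For each of the 3 genes both 20 h sums lay above both 15 h sums, where 19.8% of all genes tested did so. The 3 were called on these same sums. CCND1, the D cyclin most tied to growth factor signals, had values of 169 and 206 CPM at 15 h and 129 and 173 at 20 h, which overlap (log2 -0.32, adjusted p = 0.085). CCND2, CCND3, CDK4, CDK6 and the phosphatase CDC25A had log2 differences between -0.13 and 0.41 and were not called. With the 4 sums alone, or with only cells of at least 6500 UMIs, 1 of the 9 genes of the list was called lower. With the 15 h sum of library 1 left out, 0 of the 9 genes of the list were called, with adjusted p = 0.43 for CCNE2, 0.57 for CCNE1 and 0.40 for CDK2, and without the block 0 were called. CCNE2 alone passed without the 20 h sum of library 1, where CCNE1 had an adjusted p of 0.14.

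Among 6 tested inhibitors of cyclin-dependent kinases 3 rose and 0 fell. Without the low-count filter, or with the 4 sums alone, 1 of the 6 was called lower. CDKN2C, an inhibitor of CDK4 and CDK6, went from 4.07 and 5.68 CPM to 11.1 and 14.1 (log2 1.44 ± 0.28 SE, adjusted p = 0.00025). CDKN3, a phosphatase of CDK2, went from 9.33 and 12.8 CPM to 22.6 and 32.9 (log2 1.32) and CDKN2D from 7.13 and 15.6 to 17.5 and 18.2 (log2 1.07). The stress and quiescence inhibitors CDKN1A (log2 -0.07), CDKN1B (0.39) and CDKN1C (-0.78, with an adjusted p of 0.05 that lay above the threshold before rounding) were not called. Of these 6, 0 were called without the 15 h sum of library 1, and only CDKN2C was without the block (adjusted p = 0.019).

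Of 13 genes of the E2F and RB family, 3 rose and 0 fell. E2F1, an activator that E2F itself induces, went from 27.1 and 35.5 CPM to 44.3 and 43.8 (log2 0.65 ± 0.16 SE, adjusted p = 0.0076). The atypical E2Fs, repressors that limit the wave of S phase transcription, were at low levels: E2F8 went from 2.04 and 4.26 CPM to 10.8 and 9.91 (log2 2.11) and E2F7 from 6.28 and 4.26 to 12.8 and 9.59 (log2 0.96, adjusted p = 0.046). E2F2 (log2 1.73, adjusted p = 0.051) missed the threshold, as did TFDP2 (0.75), RBL1 (0.60) and TFDP1 (0.30). RB1, at 34.6 and 35.5 CPM and then 36.4 and 37.1, differed by 0.07. The count was 0 without the 15 h sum of library 1 (adjusted p = 0.85 for E2F1), without the block only E2F8 was called (0.019), and DESeq2 gave E2F1 an adjusted p of 0.19 and none to E2F7 or E2F8. E2F8 (0.041) was the only one of the 3 that stayed called without the 20 h sum of library 1, where E2F1 had 0.13 and E2F7 0.72 (log2 0.58). E2F7 also lost its call without the 15 h sum of library 2 (0.097).

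Origin licensing loads the MCM2-7 helicase on DNA with ORC, CDC6 and CDT1, and 10 of 17 such genes rose, against 3.44% of all genes, with 0 lower and a list median of 0.66. The helicase rose as a whole. MCM7 went from 69.9 and 119 CPM to 152 and 160, MCM6 from 26.0 and 32.7 to 52.6 and 42.5, MCM5 from 25.3 and 29.8 to 46.4 and 48.3, and MCM4 from 53.1 and 48.3 to 84.0 and 80.6. In all of these both 20 h sums lay above both 15 h sums, as they did for MCM2 and MCM3 and for 19.8% of all genes tested. Their log2 differences were 0.66 for MCM4, 0.70 for MCM3, 0.83 for MCM5, 0.89 for MCM7 and 0.91 for both MCM2 and MCM6. MCM10, which acts when the loaded helicase is activated, went from 11.9 and 19.9 CPM to 29.5 and 34.8 (log2 1.22 ± 0.19 SE, adjusted p = 8e-06). The loader CDC6 rose by 0.84 and ORC6 by 0.94 on the log2 scale, and GMNN, the inhibitor of re-licensing, by 0.34. ORC1 to ORC5 had log2 differences between -0.38 and 0.18 and MCMBP 0.11, none called, and CDT1 missed the threshold (0.53, adjusted p = 0.08). Of the 17, 0 were called without the 15 h sum of library 1 (for the 10 named as higher, adjusted p between 0.17 for MCM4 and 0.75 for MCM6), and without the block 2 were. CDC6 (0.18), MCM2 (0.12) and GMNN (0.47) also lost their calls without the 20 h sum of library 1. GMNN further lost its call without the 15 h sum of library 2 (0.20), without the 20 h sum of library 2 (0.075) and without the block (0.57).

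Of 39 genes for origin firing and the replication fork 19 rose, against 3.44% of all genes, 0 fell and the median was 0.74. PCNA went from 214 and 256 CPM to 407 and 422 (log2 0.86 ± 0.12 SE, adjusted p = 2.8e-07). CDC45, the helicase cofactor whose loading fires an origin, went from 10.7 and 17.0 CPM to 34.4 and 35.5 (log2 1.56). CLSPN, the adaptor that couples the fork to the checkpoint kinase CHEK1, went from 30.0 and 35.5 to 69.8 and 81.2 (log2 1.24), and DSCC1, which helps to load PCNA, from 21.9 and 24.1 to 49.1 and 49.2 (log2 1.12). The groups did not overlap in any of these 4 genes. Over the list both 20 h sums exceeded both 15 h sums for 28 genes, where 19.8% of all genes tested did so. PCNA (adjusted p = 0.012) and CLSPN (0.023) were the only 2 of the 39 called without the 15 h sum of library 1, and 7 were called without the block and 12 by DESeq2.

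Of 22 nucleotide synthesis genes 8 rose, against 3.44% of all genes, and 0 fell. RRM2, the regulated subunit of ribonucleotide reductase (chr2:10120698-10131419 on GRCh38, plus strand), went from 20.2 and 41.2 CPM to 102 and 126 (log2 2.15 ± 0.16 SE, adjusted p = 2.1e-14). Its partner RRM1 went from 34.1 and 45.4 to 76.2 and 96.5 (log2 1.17). TYMS went from 27.1 and 28.4 CPM to 87.2 and 79.0 (log2 1.64), and TK1, the kinase that salvages thymidine, from 8.31 and 19.9 to 36.4 and 39.3 (log2 1.80). In all 4 both 20 h sums lay above both 15 h sums, where 19.8% of all genes tested did so. DUT, DTYMK and SHMT1, named after their values were seen, were also called, with log2 differences of 0.71, 0.63 and 0.88. The de novo purine genes PPAT, GART, PFAS, PAICS, ATIC and GMPS and the pyrimidine genes CAD, DHODH and UMPS, also named after their values were seen, differed by -0.18 to 0.37 and were not called, nor was the dCTP pyrophosphatase DCTPP1 (0.26). The difference between these groups of enzymes was not tested. Without the 15 h sum of library 1, 5 of the 22 stayed past the threshold, RRM2 among them (adjusted p = 4.8e-05), and TK1 did not (0.12).

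Chromatin assembly and maintenance genes followed with 10 of 18 higher, against 3.44% of all genes, 0 lower and a median of 0.65. ATAD2, a bromodomain protein of replicating chromatin, went from 47.7 and 51.1 CPM to 113 and 127 (log2 1.26 ± 0.13 SE), and EZH2, the H3K27 methyltransferase, from 18.5 and 15.6 to 43.3 and 46.4 (log2 1.25). The histone chaperones ASF1B, from 12.1 and 19.9 to 35.0 and 40.3 CPM, and NASP, from 92.5 and 109 to 183 and 156, rose by 1.40 and 0.85 on the log2 scale. ATAD2 (adjusted p = 0.00066) and EZH2 (0.012) kept their calls without the 15 h sum of library 1, and ASF1B and NASP had an adjusted p of 0.19. Of the 18, 2 were called without that sum and 6 without the block. The variants H2AFV, H2AFZ and H2AFX rose by 0.67, 0.60 and 0.54 out of 9 replication-independent histone genes, and H2AFX was not called without that sum (0.56).

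Replication-dependent histone mRNAs, which lack poly(A) tails, were at low levels. Of 60 listed genes 54 were in both tables and 18 passed the count filter, which a gene can pass through its level at a later time alone, so the 3 called higher are not read as support. HIST1H4C went from 13.7 and 15.6 CPM to 32.9 and 33.6 (log2 1.34 ± 0.26 SE, adjusted p = 0.00021, and 0.64 without the 15 h sum of library 1). HIST1H1A had 1 and 0 UMIs at 15 h and 14 and 11 at 20 h, which is 18.9-fold higher over both libraries with a 95% counting interval of 3.09 to 774. HIST1H2BH had 0 UMIs in both 15 h sums and 9 and 4 at 20 h. Against a floor of 3 counts over both libraries it was 3.27-fold higher, and the 95% counting interval began at 2.3-fold. Histone genes of a cluster are near-identical copies, so how reads were divided among them is uncertain.

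DNA repair and checkpoint genes gave 14 higher of 23 tested, against 3.44% of all genes, 0 lower and a median of 0.82. FANCI, of the Fanconi anaemia pathway, went from 8.99 and 15.6 CPM to 27.8 and 26.8 (log2 1.41 ± 0.20 SE, adjusted p = 9.8e-07). The recombination factor RAD51AP1 went from 9.50 and 15.6 to 28.9 and 32.6 (log2 1.54) and the nuclease EXO1 from 6.45 and 8.52 to 19.3 and 24.3 (log2 1.59). CHEK1, the kinase of the replication checkpoint, went from 37.8 and 39.8 to 68.4 and 66.2 (log2 0.82). ATR, which activates CHEK1 and is named after its value was seen, differed by -0.01. Only 1 gene of the list was called without the 15 h sum of library 1, and these 4 had an adjusted p between 0.22 and 0.42. The count was 6 without the 20 h sum of library 1, 5 without the block and 9 with DESeq2. Among 22 p53 targets 2 rose and 1 fell, where 3.44% of all genes rose and 1.66% fell. Their median was 0.03, and 0 were called without the block.

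Genes of G2 and mitosis rose most often: 50 of 58 rose, against 3.44% of all genes, and 0 fell. All 58 had a fitted difference above 0, with a median of 1.57. NDC80, of the outer kinetochore, went from 2.21 and 4.26 CPM to 18.1 and 27.2 (log2 2.97 ± 0.30 SE, adjusted p = 1.8e-10). MKI67, the proliferation marker that coats mitotic chromosomes, went from 10.0 and 14.2 to 52.3 and 81.5 (log2 2.40). TOP2A, which untangles sister chromatids, went from 9.16 and 39.8 to 49.4 and 83.1 (log2 2.05), and HMGB2, a chromatin protein of cycling cells, from 37.5 and 52.5 to 134 and 156 (log2 1.77). Both 20 h sums lay above both 15 h sums for these 4 and for 51 of the 58, against 19.8% of all genes tested. The sums overlapped for CENPA, the centromeric histone, at 2.88 and 18.5 CPM and then 17.0 and 25.9 (log2 1.93). Library 2 already stood above library 1 at 15 h in TOP2A, CENPA and BIRC5, and the log2 difference of TOP2A was 2.37 in library 1 and 1.05 in library 2. Without the 15 h sum of library 1, 16 of the 58 were called, with TOP2A at an adjusted p of 0.052, BIRC5 at 0.073 and CENPA at 0.73, and without the block 15 were.

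The cyclins and kinases of mitotic entry, named after their values were seen, rose by different amounts. CDK1 went from 15.9 and 41.2 CPM to 67.6 and 108 (log2 1.89) and its partner CCNA2 from 8.82 and 8.52 to 26.8 and 32.0 (log2 1.56). CCNB1, which triggers mitosis, went from 32.9 and 52.5 CPM to 52.2 and 77.4, where the times overlap (log2 0.55, adjusted p = 0.028). At 30 h CCNB1 stood at 216 and 375 CPM. FOXM1, the factor that drives late mitotic genes, had 0.85 and 4.26 CPM at 15 h and 6.26 and 10.2 at 20 h. A list of cell cycle ubiquitin ligases and proteins that work with or on them had 9 of 14 genes higher, against 3.44% of all genes, and 0 lower. The calls include genes that are not ligases, such as FBXO5 and UBE2C. FZR1, SKP2, FBXW7, FBXO32 and MDM2, parts of ligases named after their values were seen, were not called (log2 -0.08 to 1.61). FBXO5, the S phase inhibitor of the anaphase-promoting complex, went from 7.81 and 17.0 to 36.9 and 33.6 CPM (log2 1.97, adjusted p = 1.5e-08, and 0.31 without the 15 h sum of library 1). UBE2C, an enzyme that works with that complex, went from 23.9 and 75.2 to 93.0 and 140 (log2 1.62, adjusted p = 5.1e-09, and 0.43 without the block). Of the 9 calls in that list most were lost without the 15 h sum of library 1 (list median 0.64). Some were also lost without the 20 h sum of library 1 (0.68). The count was 2 without the block and 6 with DESeq2.

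**Figure D2:**
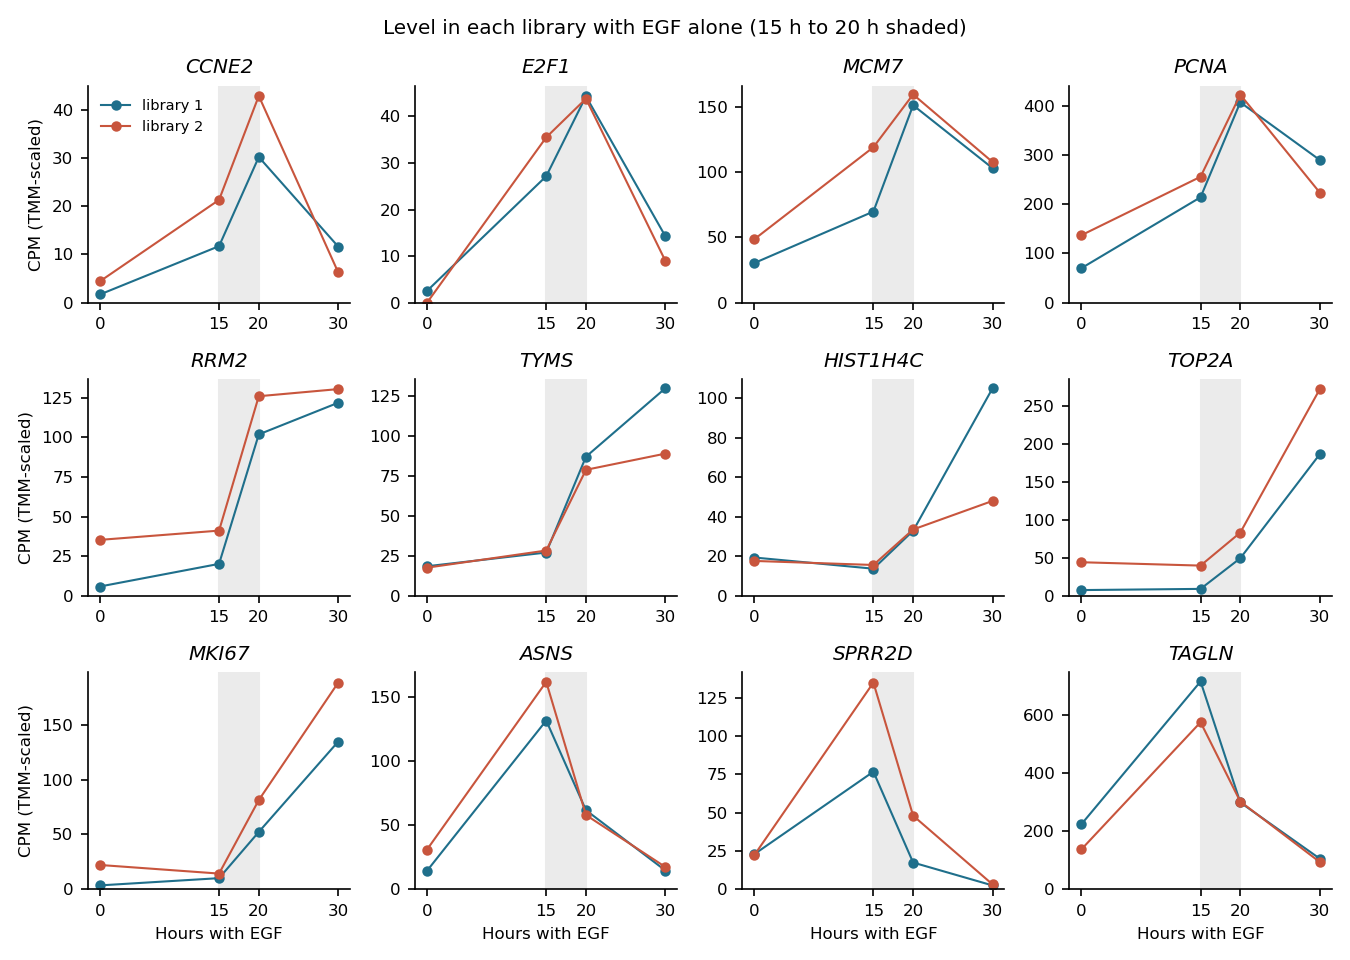
Level in CPM (TMM-scaled, y axis, from 0) of 12 genes in libraries 1 and 2 after 0, 15, 20 and 30 h of EGF alone, each point 1 sum of cells. CCNE2, E2F1, MCM7 and PCNA were highest at 20 h in both libraries, TOP2A and MKI67 were higher again at 30 h, and ASNS, SPRR2D and TAGLN were highest at 15 h.

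Set beside the unstimulated cells and those at 30 h, the levels at 15 h and 20 h differed by function. CCNE2 was at 1.69 and 4.42 CPM at 0 h and at 11.6 and 6.26 at 30 h, so both 20 h sums were its highest. Of the 10 licensing genes called higher at 20 h, 9 had a lower level at 30 h than at 20 h in both libraries, and so did the 3 cyclin E and CDK2 genes and the 3 E2Fs. Of the 8 nucleotide synthesis genes called higher, in contrast, 6 were higher again at 30 h in both libraries and 0 lower. Of the 50 mitotic genes called higher 47 had a still higher level at 30 h in both libraries. MKI67 reached 135 and 189 CPM and HIST1H4C 105 and 48.0 at 30 h. These are levels with no test, and they share the 20 h sums with the comparison of 20 h against 15 h. The plot of levels by time shows the 4 time points for 12 of the genes.

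Cell by cell, the DNA synthesis genes shifted over most of the distribution at 20 h. The 96 genes of the 4 lists of licensing, fork, nucleotide and chromatin genes took 0.306% of UMIs in the median cell of library 1 and 0.441% in that of library 2 at 15 h, and 0.597% and 0.672% at 20 h. Of the 20 h cells 48.9% in library 1 (95% exact binomial interval 44.1 to 53.6) and 30.9% in library 2 (25 to 37.3) lay above the 90th percentile of the 15 h cells of their library. That percentile comes from 64 cells in library 2, the intervals take it as fixed, and 67 and 64 of the 20 h cells lay within 10% of it. A lower tail remained, since the 10th percentile of the 20 h cells was 0.222% and 0.326%. For the G2 and mitosis genes the medians were 0.197% and 0.273% at 15 h and 0.326% and 0.435% at 20 h. There 48.6% and 45.9% of 20 h cells passed the 90th percentile of the 15 h cells. Cells thinned to 6500 UMIs gave medians of 0.308% and 0.408%, then 0.600% and 0.677%, for the DNA synthesis genes. Intervals over cells cover counting error only, cells of a library are not replicates, and 2 libraries against 2 allow no exact permutation p below 0.333.

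The share of cells with at least 1 UMI of a gene was taken after thinning to 6500 UMIs, which kept 462 and 46 cells at 15 h and 420 and 196 at 20 h. MKI67 was seen in 2.81% of cells of library 1 (95% exact interval 1.51 to 4.76) and 8.70% of library 2 (2.42 to 20.8) at 15 h, and in 21.0% (17.2 to 25.2) and 33.7% (27.1 to 40.8) at 20 h. Unthinned, the shares were 6.97% and 7.81%, then 34.9% and 45.5%. RRM2 was seen in 7.79% and 23.9% of cells at 15 h and 35.5% and 42.3% at 20 h. PCNA was already seen in 60.0% and 63.0% at 15 h and was in 83.1% and 92.9% at 20 h. ASNS moved the other way, from 50.2% and 63.0% to 29.8% and 31.6%. No cell type that lacks these genes was in the libraries, so the share that free RNA adds was not tested.

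**Figure D3:**
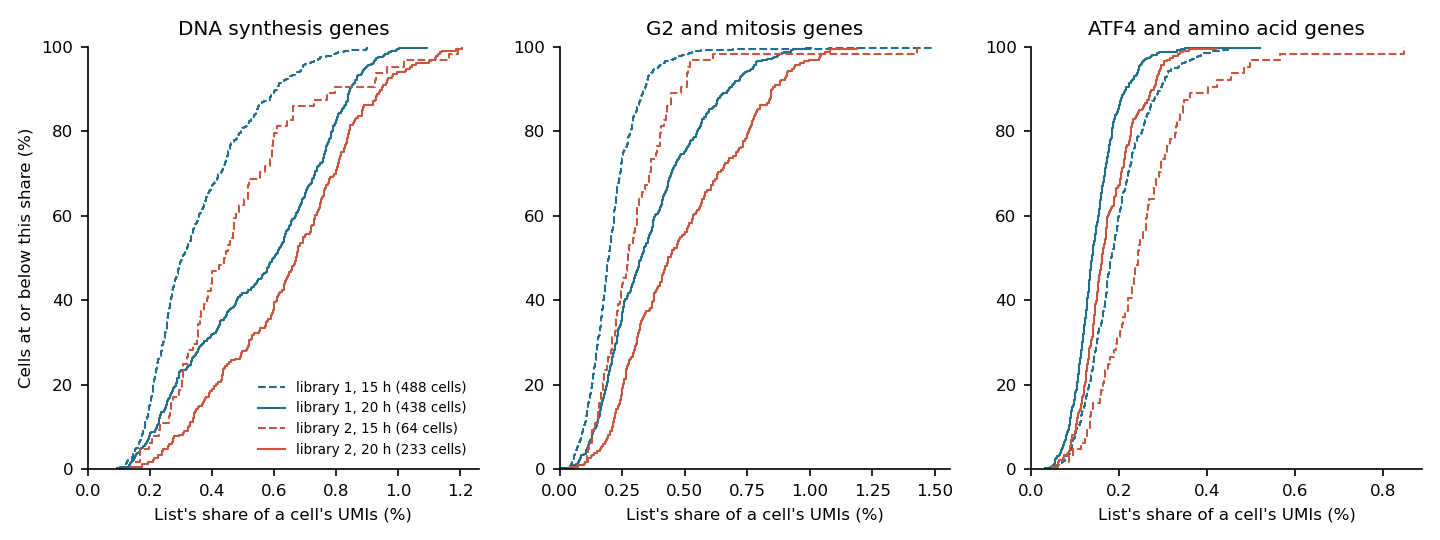
Cumulative share of cells (y axis, %) by the percentage of each cell's UMIs that a list took (x axis), for 15 h (dashed) and 20 h (solid) cells of each library. The 20 h curves lie to the right of the 15 h curves for DNA synthesis and for G2 and mitosis genes, and to the left for ATF4 and amino acid genes.

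The genes lower at 20 h were led by amino acid supply. ATF4 is the transcription factor of the amino acid response, and 10 of 16 genes of its programme fell, against 1.66% of all genes, with 0 higher and a median of -0.59. ASNS, asparagine synthetase (chr7:97852118-97872542 on GRCh38, minus strand), went from 132 and 162 CPM to 61.6 and 57.9 (log2 -1.25 ± 0.12 SE, adjusted p = 3.4e-11). The serine synthesis enzymes PSAT1, from 142 and 136 to 67.9 and 72.9, and PHGDH, from 94.0 and 101 to 47.4 and 51.8, differed by -1.0 and -0.98. SLC7A11, the cystine transporter, went from 18.8 and 51.1 to 8.51 and 17.6, so that library 2 at 20 h was just below library 1 at 15 h (log2 -1.29). ATF4 itself, named after its value was seen, went from 68.7 and 65.3 to 38.2 and 36.4 CPM (log2 -0.84, adjusted p = 0.00012). PCK2, a mitochondrial enzyme of amino acid and glucose metabolism outside the list, went from 36.3 and 35.5 to 17.3 and 18.5 CPM (log2 -1.09). Without the 15 h sum of library 1, 7 of the 16 were called lower (PSAT1 at an adjusted p of 0.0044, PHGDH at 0.019), and PCK2 was not (0.48). Without the block 3 were, ASNS, PSAT1 and PHGDH. In the median cell the list took 0.182% and 0.243% of UMIs at 15 h and 0.138% and 0.161% at 20 h.

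Cytosolic aminoacyl-tRNA synthetases, which charge tRNAs with amino acids, were added as a list after AARS was seen among the largest falls, so the count, which includes AARS, is not independent of that choice. Of 20 tested 12 fell, where 1.66% of all genes did, and 0 rose, with a median of -0.40. AARS went from 25.6 and 27.0 CPM to 12.2 and 9.27 (log2 -1.22 ± 0.20 SE), GARS from 113 and 124 to 57.1 and 60.4 (-1.0), YARS from 53.4 and 63.9 to 26.6 and 32.9 (-1.0), SARS from 121 and 112 to 71.1 and 67.1 (-0.75) and EPRS from 332 and 334 to 226 and 204 (-0.61). In these 5, which were called on the same sums, both 20 h sums lay below both 15 h sums, where 16.4% of all genes tested did so. The other 8 genes, such as QARS (0.03) and HARS (0.05), named after their values were seen, gave no call. Their mitochondrial counterparts gave 1 call in 17, VARS2 (log2 -0.40), and a median of -0.01. Without the 15 h sum of library 1, 4 of the cytosolic 20 were called, GARS at an adjusted p of 0.001 and AARS no longer (0.18), and 5 were called without the block and 7 without the 20 h sum of library 2.

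Keratinocyte stress genes were mixed, with 9 of 21 lower, 2 higher and a median of -0.26, where 1.66% of all genes were lower and 3.44% higher. SPRR2D, a cornified envelope precursor, went from 76.7 and 135 CPM to 17.3 and 47.9 (log2 -1.81 ± 0.16 SE, adjusted p = 1.1e-11, and 0.062 without the block). SERPINB2, a serpin of stressed epithelium, went from 17.3 and 90.9 to 8.99 and 24.0 (log2 -1.34), where the times overlap across libraries. KRT17 went from 4297 and 6918 to 2393 and 4324 (log2 -0.76) and KRT6A from 3833 and 5110 to 2789 and 3280 (-0.55). KRT6A and the SPRR2 genes have near-identical copies, so their counts are uncertain. The 2 higher genes, the calprotectin subunits S100A8 and S100A9, moved in opposite directions in the libraries. S100A8 went from 17.8 to 52.8 CPM in library 1 and from 36.9 to 25.3 in library 2, and S100A9 from 27.7 to 76.7 and from 78.1 to 45.7, so their calls (log2 1.16 and 0.92) rest on library 1 and turn to -0.28 and -0.61 without its 15 h sum. Without the block 0 genes of the list were called lower, and 5 were without the 20 h sum of library 1.

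Targets of SRF and YAP, which answer to actin and cell shape, gave 4 lower of 18, against 1.66% of all genes. None was higher and the median was -0.22. TAGLN, the actin-binding transgelin (chr11:117199321-117204782 on GRCh38, plus strand), went from 716 and 575 CPM to 299 and 302 (log2 -1.12 ± 0.10 SE, adjusted p = 1.1e-11). MYL9, a myosin light chain, went from 34.1 and 32.7 to 12.5 and 16.3 (log2 -1.30, adjusted p = 0.25 without the 15 h sum of library 1). The YAP targets CTGF (log2 0.60) and CYR61 (-0.27), named after their values were seen, were not called. Of 15 basal and hemidesmosome genes 3 rose and 1 fell. KRT15, a keratin of basal stem-like cells, went from 3.56 and 12.8 CPM to 12.04 and 35.2 (log2 2.04, adjusted p = 0.65 without the 15 h sum of library 1), and LAMB3, a laminin chain, from 182 and 270 to 140 and 125 (log2 -0.65). VIM, of 13 mesenchymal genes the only call, went from 429 and 190 to 559 and 415 (log2 0.58) and lost it without the 15 h sum of library 2. The count of SRF and YAP targets called lower was 2 without either 15 h sum or without the 20 h sum of library 2, and the basal genes called higher were 0 without the 15 h sum of library 1 and 1 without either 20 h sum.

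The counts of the other lists stand beside 3.44% of all genes called higher and 1.66% called lower. Of 25 sterol and fatty acid synthesis genes 3 rose, among them FDPS (log2 0.60) and IDI1 (0.61), and 0 were called without the 15 h sum of library 1 (adjusted p = 0.08 for FDPS and 0.25 for IDI1). Among 21 glycolysis and hypoxia-type genes VEGFA fell from 19.9 and 24.1 to 9.31 and 7.35 CPM (log2 -1.25, adjusted p = 0.11 without that sum) and NDRG1 by 0.48, and ANGPTL4 rose by 0.50. ANGPTL4 differed by 0.17 (adjusted p = 0.85) without the 20 h sum of library 1 and by 0.37 (0.25) without the 15 h sum of library 2, and its adjusted p was 0.08 without the 15 h sum of library 1, 0.62 without the block and 0.25 with DESeq2. NDRG1 was not called without the 15 h sum of library 1 (0.31), the 20 h sum of library 1 (0.15), the 20 h sum of library 2 (0.066) or the block (0.21). The chaperone HSPA1A, whose copy HSPA1B is near-identical, went from 144 and 122 to 78.8 and 93.3 CPM (log2 -0.77), with HSPA8 (-0.38) and HSPA5 (-0.37) also lower and HSPE1 (0.31) higher among 15 genes. Without the 15 h sum of library 1, 0 chaperones and 0 glycolysis and hypoxia-type genes were called lower, and HSPE1 was called (0.025). HSPE1 was not called without the 15 h sum of library 2 (log2 0.17, adjusted p = 0.55), without the 20 h sum of library 1 (0.38) or library 2 (0.13), without the block (0.72) or with DESeq2 (0.078). Of 26 ribosome biogenesis and MYC target genes 2 fell and 0 rose, with a median of -0.07 and 0 called without that sum. FOXO targets (18 tested), interferon and MHC class I genes (14) and mitochondrial-encoded transcripts (13) gave 0 calls in the main edgeR fit. DESeq2 also gave 0, and 3, 1 and 2 of them had an unadjusted p under 0.05. With the 4 sums alone edgeR called 2 mitochondrial-encoded transcripts lower, and at a minimum of 20 CPM it called 1 lower.

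**Figure D4:**
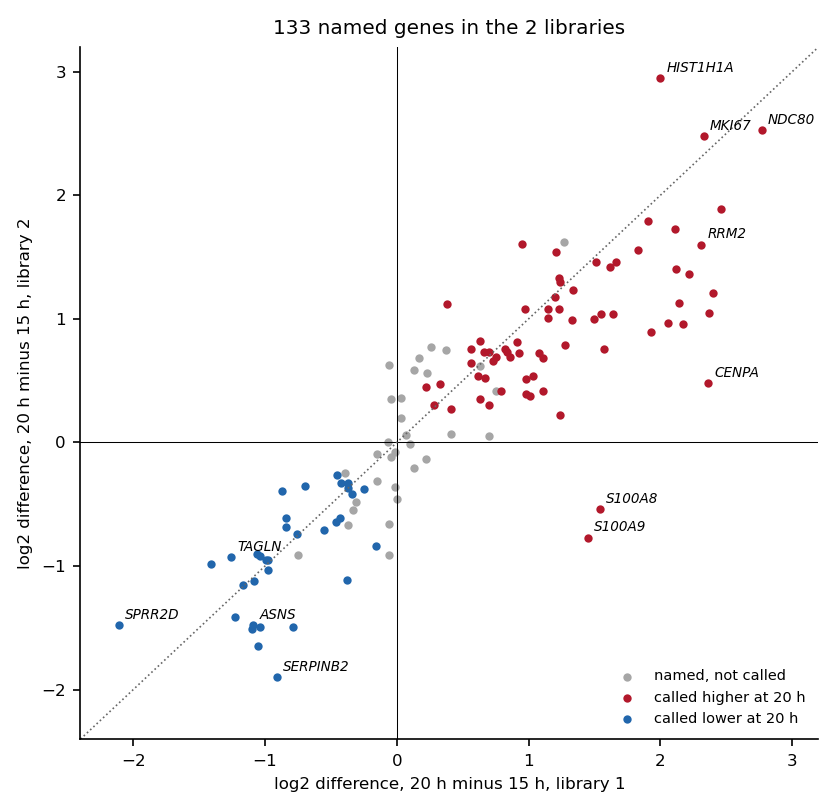
Log2 difference at 20 h minus 15 h in library 1 (x axis) and library 2 (y axis) for the 133 named genes, with the line of equality dotted. Called genes lie in the upper right and lower left quadrants except S100A8 and S100A9. The calls came from a fit of these same libraries, and the largest changes were chosen to agree in sign.

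The plot of library 1 against library 2 shows that 2 of the 101 called and named genes had opposite signs, the calprotectin genes. Same signs in the others were largely set by the choice of genes. The calls came from a fit of both libraries, and the largest changes had to agree in sign. MKI67 differed by 2.33 and 2.48, NDC80 by 2.77 and 2.53, RRM2 by 2.31 and 1.6, HMGB2 by 1.83 and 1.56, and ASNS by -1.09 and -1.48.

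Across all called genes, promoter letters differed by direction. A site of the E2F type stood in 14.4% of 457 promoters (315 genes) called higher, in 2.0% of 200 promoters (126 genes) called lower, in 5.1% of promoters of all tested genes and in 3.31% of all 35116 promoters of 300 bases. The CHR-type letters TTTGAA or TTCGAA, through which MuvB binds mitotic genes, stood in 27.4% of promoters called higher, 12% called lower and 11.8% of those tested (16.4% of all promoters). CCAAT, which NF-Y binds and which often lies near such elements, stood in 52.5%, 35.5% and 35.5% (34.6% of all). TGANTCA, the AP-1 type, stood in 1.97% of promoters called higher, 8.0% called lower and 5.15% tested (7.71% of all). The E-box CACGTG (10.5%, 8.5% and 9.58%, and 7.26% of all) and the TEAD type GGAATG (10.5%, 12.5% and 11.2%, and 14.0% of all) differed less. All motifs were searched on both strands and may overlap, genes with several starts count with each promoter, and a match is a description of letters without a test.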

How the data were processed

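Single-cell UMI counts per gene and cell of 2 pooled libraries were deposited by the authors as raw counts with no normalisation, which the whole numbers in both tables fit. Per the submitters' processing notes they were made with Cell Ranger 3.0.2, Seurat and GRCh38. How tags were called, which annotation and strand setting were counted and how cells were filtered is not stated by the labels or files used. Of all barcodes 56.1% and 40.2% were called doublets in the deposited tag tables, and only single-tagged cells have counts. Doublets that share a tag cannot be seen, so an alternative leaves out the 10% of cells with most UMIs.

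Counts of the 16387 genes in both tables were summed per library and condition. All 16 sums entered a single edgeR 4.0.16 fit (filterByExpr, TMM, quasi-likelihood F test; R 4.3.3, limma 3.58.1), with the library as a block since all conditions of a replicate share it. Same-library deviations correlated with a median r of 0.588 (0.281 to 0.677, 28 pairs of conditions, 4706 genes). Adjusted p is Benjamini-Hochberg over 11147 genes with a threshold of 0.05; the fit had 7 residual degrees of freedom and a biological coefficient of variation of 0.0604. Levels are CPM after TMM, SE is that of the log2 difference, and a prior count of 2 went into log2 differences within a library. Tested on simulated data for this comparison with 11147 genes, the fit found 26.9% of genes set to a log2 change of 0.5, 59.7% at 1 and 87.9% at 2, and called 7 of 10947 unchanged ones.

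The comparison, its 31 gene lists (625 genes) and the naming rule were chosen with earlier results of these data known, and 2 lists of tRNA synthetases were added after the largest falls were seen. Named were the 12 largest rises and falls that passed the threshold, agreed in sign between the libraries and reached 20 CPM at either time, up to 4 called members of each list in each direction by p, and members of the cyclin, inhibitor, E2F, licensing and line marker lists. Alternatives were other scalings and filters, no block, DESeq2 1.42.0, the 4 sums alone, subsets of cells, and each sum left out. Gene positions are from GENCODE v29 and promoters from RefSeq (GRCh38.p14); of 11147 tested genes 9073 had a promoter there.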

Additional observations from a re-analysis of the deposited data

How the results depend on the processing

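The replicate block decided many calls: without the pairing by library 88 genes were changed, 71 higher and 17 lower, against 568, 383 and 185 with it, and 50 of 182 called list genes and 38 of 101 called named genes passed. DESeq2 called 351 genes, 253 higher and 98 lower, and a fit of only the 4 sums compared called 863, with 332 lower. Leaving out 1 sum at a time gave 105 to 500 changed genes, 60 to 337 higher, 45 to 163 lower, and 34 to 91 of the named genes, and 53 to 169 list genes, with the lowest counts without the 15 h sum of library 1. That setting leaves 64 cells at 15 h; of the 101 called named genes 65 kept their direction and lost the call there. S100A8 and S100A9 turned to -0.28 (adjusted p = 0.85) and -0.61 (0.44) there, and to -0.54 and -0.77 in library 2 alone, where there is no test. RLE size factors (569 genes), no low-count filter (571), cells with at least 6500 UMIs (572), library totals (645), a minimum of 20 CPM (496) and no cells in the top 10% of UMIs (429) stayed within 1.5 times. The sums of library 2 at 15 h, 635365 UMIs, limit what could be tested at low levels.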

Other observations

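Some values stood outside the comparisons above. S100A7, a psoriasin of squamous epithelium named after its values were seen, was at 106 and 79.5 CPM without EGF, at 0 and 2.84 at 15 h and at 0.48 and 13.8 at 20 h, so at 20 h it was detected mainly in library 2 (adjusted p = 0.092). CRYAB, a small heat shock protein also named afterwards, went from 108 and 61.8 CPM without EGF to 13.9 and 7.10 at 15 h and 7.06 and 6.71 at 20 h. KRT15 was at 48.1 and 61.8 CPM without EGF, 3.56 and 12.8 at 15 h, 12.04 and 35.2 at 20 h and 29.8 and 30.4 at 30 h, so its lowest value in each library was at 15 h. ATF4 was at 211 and 83.9 CPM without EGF and at 68.7 and 65.3 at 15 h, while its target ASNS was at 14.3 and 30.9 without EGF and at 132 and 162 at 15 h. SLBP, which binds histone mRNA, was at 97.7 and 135 CPM at 15 h and at 119 and 124 at 20 h (log2 0.18, adjusted p = 0.47).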
